A study of Mus musculus with 6 samples.

Results

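Genes for 9 secreted products of alveolar type II (AT2) cells were followed across the 6 libraries of the study: the lysozymes *Lyz1* and *Lyz2*, the complement component *C3*, the siderophore-binding protein *Lcn2*, the chitinase-like protein *Chil1*, the antiprotease *Slpi*, the chemokine *Cxcl15*, the alarmin *Il33* and the matrix protein *Egfl6*. Members were taken by gene symbol, as rows of the count table, by a rule that itself uses no measured value, although earlier results of these data were known when the genes were listed. All 9 symbols were found among the 24421 genes of the table, and all 9 passed the filter on low counts that left 16723 genes to test. The first 8 encode proteins used in defence against microbes or in the response to injury. *Egfl6*, which encodes a secreted EGF-like protein of the extracellular matrix, is not a defence gene in the usual sense.

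The libraries hold poly(A) RNA of lineage-labelled AT2 cells sorted from mouse lungs, 3 libraries of AT2CTRL and 3 of AT2CAB. AT2CTRL mice carried Sftpc-CreERT2/+ and R26-tdTomato/+. AT2CAB mice carried Sftpc-CreERT2/+ and R26-tdTomato/R26-caBmpr1a, so that a *Rosa26* allele encoded a constitutively active type I BMP receptor. Both groups thus had the tamoxifen-inducible Cre driven by the surfactant protein C promoter and the tdTomato label, and they differed in the caBmpr1a allele. The labels give an age of 16 weeks for 1 library of each group, AT2CTRL replicate 2 and AT2CAB replicate 1, and 12 weeks for the others. The label reports recombination of tdTomato and not of caBmpr1a, so a sorted AT2CAB sample can hold labelled cells without the active receptor. The comparison asks how receptor activation in AT2 cells bears on their transcripts, here on those for secreted defence proteins.

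AT2 cells make surfactant, and they also release proteins that act on microbes in the thin liquid layer of the alveolus. Lysozyme cuts the bacterial cell wall, and in AT2 cells it is stored in lamellar bodies, the organelles that hold surfactant. Other products work indirectly: complement marks particles for uptake, chemokines draw neutrophils, alarmins alert immune cells when an epithelial cell is damaged, and antiproteases limit the harm done by neutrophil enzymes.

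Levels are given as CPM, counts scaled to the same library total with edgeR's TMM method. A log2 fold change is AT2CAB over AT2CTRL, with its standard error (SE), from edgeR's quasi-likelihood test over all 16723 genes, and p-values were adjusted over all of them by the Benjamini-Hochberg method. The libraries held between 21554249 and 28440227 counts. Reads on Y-linked genes were present in AT2CTRL replicate 1 (176.4 CPM) and AT2CAB replicate 3 (146.3 CPM) and absent from the other 4. These libraries also lay apart from the rest on the first principal component of all genes, which held 49.9% of the variance (scores of -24.6 and -59.9 against 5.69 to 39.9). Each result on the 9 genes is therefore also given in the 4 libraries without such reads and between the pair with them, where 1 library a group allows no test. *Id1*, a direct target of BMP signalling, had 18.5 to 20.8 CPM in AT2CTRL and 124.4 to 411.4 CPM in AT2CAB (log2 fold change 3.61, adjusted p = 0.0172), and *Bmpr1a* itself differed by -0.015 (adjusted p = 0.983).

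A lower mean in AT2CAB was found for 8 of the 9 genes, and *Egfl6* had a higher one. None of the 9 passed an adjusted p under 0.05 in edgeR's quasi-likelihood test in either direction, beside 0.239% of all tested genes called higher and 0.012% called lower. Before adjustment, 5 members had a p under 0.05 in the lower direction (*Lyz1*, *Lyz2*, *Cxcl15*, *Chil1* and *Il33*) against 5.05% of all genes, and 1 in the higher direction (*Egfl6*) against 4.62%. The median log2 fold change of the 9 genes was -0.62, and that of all tested genes was -0.0096. Limma-voom called none of them, whereas DESeq2, the tool named in the study's methods, called *Lyz2* and *Cxcl15* lower and *Egfl6* higher (0.646% and 1.45% of its genes were called in those directions). All 3 AT2CAB libraries lay below all 3 AT2CTRL libraries for 5 genes (*Lyz1*, *Lyz2*, *Lcn2*, *Chil1* and *Cxcl15*) and above them for *Egfl6*, where 10.1% and 7% of all tested genes separated in those directions. In single genes, an exact permutation test of 3 against 3 libraries cannot go below a two-sided p of 0.1.

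**Figure D1:**
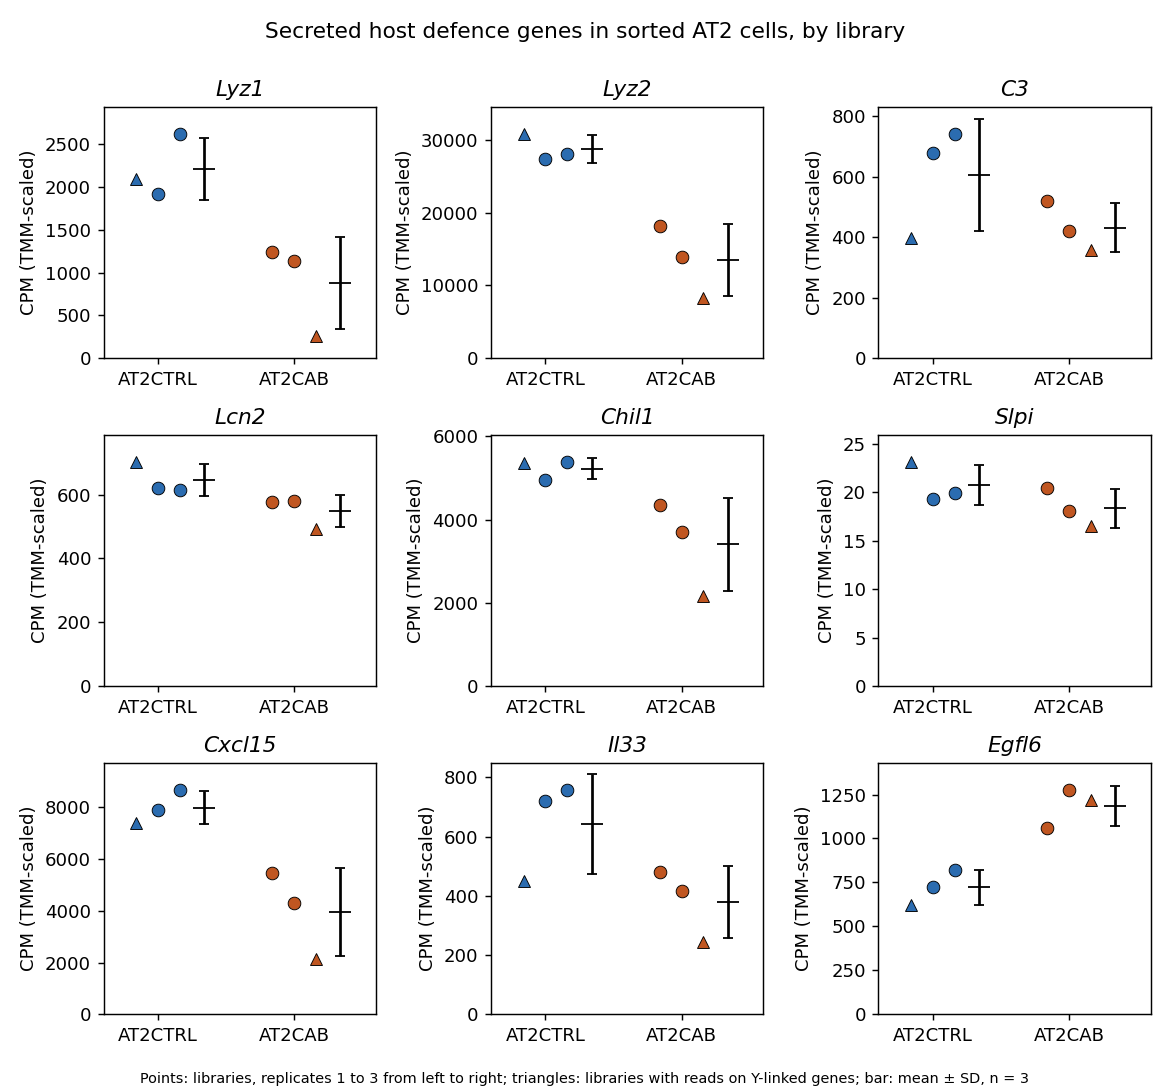
TMM-scaled CPM of the 9 genes, 1 panel per gene with its own linear axis from 0. Points are libraries (triangles are the 2 with reads on Y-linked genes), and bars are the mean ± SD of 3 libraries. AT2CAB lies wholly below AT2CTRL for *Lyz1*, *Lyz2*, *Lcn2*, *Chil1* and *Cxcl15*, wholly above it for *Egfl6*, and overlaps it for *C3*, *Slpi* and *Il33*.

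*Lyz2*, the lysozyme of myeloid and alveolar cells, had the highest level of the 9 genes in every library, also per length of exon. It had 30830, 27309 and 28038 CPM in AT2CTRL replicates 1, 2 and 3, and 18143, 13910 and 8292 CPM in AT2CAB replicates 1, 2 and 3. The AT2CTRL libraries lay close together and the AT2CAB libraries were spread over a wide range beneath them. The means were 28725 ± 1859 and 13448 ± 4942 CPM (SD, n = 3), a log2 fold change of -1.09 (SE 0.29, adjusted p = 0.273, edgeR). In the 4 libraries without Y-linked reads the value was -0.76 (SE 0.15, adjusted p = 0.0886, edgeR), and the pair with such reads differed by -1.89.

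*Lyz1* encodes the second mouse lysozyme, best known from Paneth cells of the gut. Its levels were 2092, 1920 and 2626 CPM in AT2CTRL and 1243, 1140 and 255.2 CPM in AT2CAB. AT2CAB replicate 3 stood far below the other AT2CAB libraries, which were themselves below every AT2CTRL library. The means were 2213 ± 368 and 879 ± 543 CPM (SD, n = 3), a log2 fold change of -1.33 (SE 0.49, adjusted p = 0.445, edgeR). Without AT2CAB replicate 3 it was -0.86, and in the 4 libraries without Y-linked reads it was -0.90 (SE 0.15, adjusted p = 0.0547, edgeR). The pair with Y-linked reads differed by -3.04. An interaction of group with Y-linked reads, chosen after seeing the data, was -2.10 for *Lyz1* (SE 0.26, adjusted p = 0.064, edgeR) and passed for none of the 9 genes, with 0.0658% of all genes called. Its error comes from the spread of the 4 libraries without such reads, and the pair is assumed to vary alike, so it compares those libraries only.

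The lysozyme genes are neighbours on the minus strand of chromosome 10 (mm10): *Lyz2* at chr10:117277541-117282272 and *Lyz1* at chr10:117287795-117292868, 5522 bases apart. Each has 4 exons in the deposited annotation. Their coding sequences are shown because reads must be split between 2 genes that are much alike there. Reads were counted over all exons, 1265 bases for *Lyz1* and 1057 for *Lyz2*, and percent identity outside the coding sequence was not measured. Each coding sequence is 447 bases long (GENCODE M21, GRCm38), and the 2 differ at 22 positions without a gap. The first 300 bases are written 5′ to 3′, with capitals at the 20 positions among them that differ.
Lyz1: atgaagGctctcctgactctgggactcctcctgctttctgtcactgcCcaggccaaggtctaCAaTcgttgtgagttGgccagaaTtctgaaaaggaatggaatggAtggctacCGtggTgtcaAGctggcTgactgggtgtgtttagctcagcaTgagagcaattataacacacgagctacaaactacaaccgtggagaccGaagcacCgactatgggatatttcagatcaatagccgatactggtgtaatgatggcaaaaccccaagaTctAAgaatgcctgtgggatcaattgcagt
Lyz2: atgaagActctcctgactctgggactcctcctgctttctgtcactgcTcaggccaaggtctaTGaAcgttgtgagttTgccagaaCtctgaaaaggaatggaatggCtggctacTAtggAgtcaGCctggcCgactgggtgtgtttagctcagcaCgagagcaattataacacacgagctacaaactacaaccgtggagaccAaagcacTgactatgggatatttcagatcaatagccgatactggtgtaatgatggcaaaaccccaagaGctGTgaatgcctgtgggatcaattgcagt
The coding sequences were identical at 95.1% of positions. The longest stretch shared by their transcripts was 118 bases, shorter than the reads of 150 bases, and no window of the full read length was shared. A trimmed read can be shorter than that stretch, so the counts of the pair are less certain than those of the other members. Reads on *Lyz1* made up 6.35%, 6.57% and 8.56% of all lysozyme reads in AT2CTRL. In AT2CAB replicates 1 and 2 the share was 6.41% and 7.57%, within the range of AT2CTRL. In AT2CAB replicate 3 it was 2.99% (95% Clopper-Pearson interval 2.92 to 3.05, which covers counting error only), outside the range of the other 5 libraries. The lower *Lyz1* share was thus seen in 1 library, while the lower summed level was seen in all 3.

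Upstream sequences of the lysozyme genes are shown since the genes share position, product and direction of difference, with that of *Cxcl15* for contrast. Each is the 250 bases before the annotated start (RefSeq, GRCm38.p6), written 5′ to 3′ on the gene's strand: chr10:117292869-117293118 (minus) for *Lyz1*, chr10:117282273-117282522 (minus) for *Lyz2* and chr5:90794284-90794533 (plus) for *Cxcl15*. Capitals mark matches to CAAGTG (core of the NKX2-1 element), TTGCNNAA (the C/EBP element) or the TATA box letters TATAAA, on either strand.
Lyz1: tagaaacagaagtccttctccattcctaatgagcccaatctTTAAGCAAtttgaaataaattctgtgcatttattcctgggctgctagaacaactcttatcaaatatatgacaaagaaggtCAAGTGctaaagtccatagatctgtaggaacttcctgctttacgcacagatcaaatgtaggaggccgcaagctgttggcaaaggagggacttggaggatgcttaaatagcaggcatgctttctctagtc
Lyz2: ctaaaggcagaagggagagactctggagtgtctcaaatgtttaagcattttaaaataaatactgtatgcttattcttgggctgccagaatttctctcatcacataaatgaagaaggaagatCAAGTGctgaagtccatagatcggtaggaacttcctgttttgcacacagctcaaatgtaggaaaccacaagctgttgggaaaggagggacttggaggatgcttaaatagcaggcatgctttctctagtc
Cxcl15: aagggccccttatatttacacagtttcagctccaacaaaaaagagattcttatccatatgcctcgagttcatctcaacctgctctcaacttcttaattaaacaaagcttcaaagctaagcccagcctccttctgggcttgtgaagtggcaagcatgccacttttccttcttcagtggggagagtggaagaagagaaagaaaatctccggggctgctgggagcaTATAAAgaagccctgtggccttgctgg
CAAGTG began at position 122 of the 250, counted from the 5′ end, in both lysozyme genes. Promoter windows of 300 bases (the 250 above with the next 50) were found for all 9 genes, with an alternative start for *Il33*. CAAGTG was in those of *Lyz1*, *Lyz2* and *Slpi* (13.6% of all 32851 promoters), and TTGCNNAA in those of *Lyz1*, *C3*, *Lcn2*, *Slpi* and *Il33* (10.8%). For *Il33*, TTGCNNAA was only in the window of the alternative start, and the percentages are per window. TATAAA was in the windows of *C3*, *Cxcl15* and *Il33* (13.6%). GGCGCC, an element of the BMP-regulated SMAD1/5 proteins, was in the window of *Egfl6* (11.9% of all promoters). GTCTAGAC, a palindrome bound by SMAD proteins, was in none of the 9 (0.213%). All were searched on both strands, none of the motifs lies within another, and a match describes letters only.

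Macrophages and neutrophils also make lysozyme, so their markers were read beside it. The 11 macrophage markers in the table summed to 83.3 to 93.2 CPM in AT2CTRL and to 214, 119 and 64.5 CPM in AT2CAB replicates 1, 2 and 3, and 9 of the 10 tested were highest in AT2CAB replicate 1. None of them was at 0 in any library, and *Csf1r* alone was called, higher, in the 4 libraries without Y-linked reads. Neutrophil markers (9 in the table) summed to 8.68 to 13.5 CPM in AT2CTRL and 11 to 41.7 CPM in AT2CAB, again highest in replicate 1, with *Camp* at 0 in 2 libraries and *Ltf* in 1. Within AT2CAB the order of the macrophage sums is that of *Lyz2*; its part in the result was not tested. The AT2 markers (*Sftpc*, *Sftpb*, *Sftpa1*, *Abca3*, *Lamp3*, *Slc34a2*, *Napsa* and *Etv5*) summed to 112545 to 127235 CPM in AT2CTRL and 97511 to 107886 CPM in AT2CAB, none was at 0 and none passed the adjusted test. AT1 markers summed to 1888 to 2813 CPM in AT2CTRL and 2150 to 2568 CPM in AT2CAB, and endothelial markers to 224 to 509 CPM and 433 to 724 CPM. Most of the AT1 sum was *Ager*, with means of 1556 CPM in AT2CTRL and 1536 CPM in AT2CAB. Of the 8 AT1 markers, 6 had a positive log2 fold change and 2 a negative one, from -0.53 (*Aqp5*) to 0.84 (*Rtkn2*). Among the AT2 markers, 7 had a negative log2 fold change and 1 a positive one, from -0.61 (*Sftpa1*) to 0.01 (*Sftpb*). *Sftpb* had means of 24054 CPM in AT2CTRL and 24271 CPM in AT2CAB, and *Sftpc* had a log2 fold change of -0.15. Of the 8, 4 (*Sftpa1*, *Lamp3*, *Slc34a2* and *Etv5*) lay wholly below AT2CTRL, where 10.1% of all tested genes did, and the others overlapped it. Before adjustment 3 (*Sftpa1*, *Lamp3* and *Etv5*) had a p under 0.05 with edgeR, all lower, against 5.05% of all genes. Fewer AT2 cells in a sample and less of a transcript per AT2 cell cannot be told apart in bulk RNA, and neither was tested.

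*C3*, the component on which all complement pathways converge, lies at chr17:57203967-57228136 on the minus strand. It had 396.4, 679.3 and 742 CPM in AT2CTRL and 518, 419.3 and 356.1 CPM in AT2CAB. The groups overlapped, because AT2CTRL replicate 1 was lower than 2 AT2CAB libraries. The means were 606 ± 184 and 431 ± 81.6 CPM (SD, n = 3), with a log2 fold change of -0.49 (SE 0.25, adjusted p = 0.573, edgeR). Without AT2CTRL replicate 3 it was -0.32. The difference was -0.57 in the 4 libraries without Y-linked reads (SE 0.11, adjusted p = 0.0821, edgeR) and -0.16 in the pair.

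Of 18 other complement components and regulators, 15 were tested and none passed the adjusted test of edgeR or of limma-voom. Their median log2 fold change was 0.40, and before adjustment 6 had a p under 0.05 in the higher direction and 1 in the lower. Of all tested genes, 4.62% were higher and 5.05% lower at that threshold, the background for this and every later list. *Cfb*, the protease of the alternative pathway, had the highest value, 4.66 ± 0.618 CPM in AT2CTRL and 12.3 ± 7.48 CPM in AT2CAB (SD, n = 3; log2 fold change 1.40, adjusted p = 0.306, edgeR). DESeq2 called *Cfb* and *C1s1*, a protease of the classical pathway, higher. *C1s1* had 8.07, 11.1 and 10.3 CPM in AT2CTRL and 14.6, 17.0 and 20.5 CPM in AT2CAB. The other 4 genes of that direction, chosen after their values were seen, were *C1ra* (log2 fold change 0.49), *C4b* (0.66), and the inhibitors *Serping1* (0.48) and *Cd59a* (0.40). *Cd55*, which dissolves the C3 convertase on the cell surface, had the lowest value, 71.8 ± 14.3 CPM in AT2CTRL and 39.0 ± 17.6 CPM in AT2CAB (SD, n = 3; log2 fold change -0.88, adjusted p = 0.442, edgeR). It was the only gene of this list called, as lower, once Y-linked reads entered edgeR's fit as a covariate. *C3* thus had a negative value, and 11 of the 15 tested genes around it had positive ones. Stromal cells also make several of these proteins, and 8 stromal markers summed to 142 to 190 CPM in AT2CTRL and 232 to 288 CPM in AT2CAB, with none at 0. Their part in the result was not tested.

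*Lcn2* encodes lipocalin 2, which binds bacterial siderophores and so withholds iron from microbes. The gene lies at chr2:32384637-32387739 on the minus strand. It had 702.3, 620.3 and 614.5 CPM in AT2CTRL and 576.4, 578.9 and 491.6 CPM in AT2CAB. The groups did not overlap, but the gap between them was narrow. The means were 646 ± 49.1 and 549 ± 49.7 CPM (SD, n = 3), with a log2 fold change of -0.23 (SE 0.13, adjusted p = 0.617, edgeR) that was -0.12 without AT2CAB replicate 3. It was -0.06 in the 4 libraries without Y-linked reads (SE 0.08, adjusted p = 0.798, edgeR) and -0.52 in the pair.

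*Chil1* (chr1:134182404-134190031, plus strand) encodes a chitinase-like lectin that binds chitin without cutting it. Its levels were 5355, 4942 and 5390 CPM in AT2CTRL and 4356, 3700 and 2158 CPM in AT2CAB. As for *Lyz2*, AT2CTRL was tight, with a coefficient of variation of 4.77%, and AT2CAB was spread, with 33.1%. The means were 5229 ± 249 and 3405 ± 1128 CPM (SD, n = 3), with a log2 fold change of -0.62 (SE 0.25, adjusted p = 0.486, edgeR) that was -0.34 without AT2CAB replicate 3. It was -0.33 in the 4 libraries without Y-linked reads (SE 0.12, adjusted p = 0.29, edgeR) and -1.31 in the pair. The related chitinase *Chia1*, chosen after its values were seen, had 422, 349 and 442 CPM in AT2CTRL and 420, 229 and 69.0 CPM in AT2CAB, and *Chil3*, which macrophages also make, had 21.9 to 24.3 CPM in AT2CTRL and 77.0, 31.5 and 12.0 CPM in AT2CAB.

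*Slpi*, an inhibitor of neutrophil elastase with antibacterial activity of its own, had the lowest level per length of exon of the 9 genes. The gene lies at chr2:164354070-164356507 on the minus strand, and an exon of it overlaps the microRNA gene *Mir7678*, so reads there can be left out of its count. It had 23.13, 19.29 and 19.87 CPM in AT2CTRL and 20.45, 18.04 and 16.5 CPM in AT2CAB, from 446 to 522 counts per library. The groups overlapped, with means of 20.8 ± 2.07 and 18.3 ± 1.99 CPM (SD, n = 3) and a log2 fold change of -0.18 (SE 0.14, adjusted p = 0.705, edgeR). It was -0.10 without AT2CTRL replicate 1 and -0.07 without AT2CAB replicate 3. In the 4 libraries without Y-linked reads the sign turned, to a value of 0.0062 (SE 0.125, adjusted p = 0.991, edgeR), and in the pair the difference was -0.49.

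Airway secretory cells are a source of *Slpi*, *Lcn2* and *Chil1* in the lung. Their 8 markers summed to 621 to 840 CPM in AT2CTRL and 595 to 810 CPM in AT2CAB, none was at 0 in all libraries (*Krt4* was at 0 in 3), and the ranges overlapped. Most of the sum was *Scgb1a1*. *Cyp2f2*, a club cell enzyme, did not overlap, with 173 to 214 CPM in AT2CTRL and 127 to 139 CPM in AT2CAB (log2 fold change -0.53, adjusted p = 0.19, edgeR). DESeq2 and the covariate for Y-linked reads called it lower, and its part in the results on these 3 genes was not tested. Of 11 other antiproteases, 8 were tested and none passed with edgeR or limma-voom, with a median log2 fold change of -0.13 and 1 gene in each direction at an unadjusted p under 0.05. *Timp3*, an inhibitor of metalloproteases, had 180 ± 13.8 CPM in AT2CTRL and 434 ± 192 CPM in AT2CAB (SD, n = 3; log2 fold change 1.27, adjusted p = 0.19, edgeR), and DESeq2 called it higher. *Spink5*, an inhibitor of serine proteases, had the lowest value, -1.07 (adjusted p = 0.429, edgeR). With the covariate for Y-linked reads *Timp3* was called higher and *Spink5* lower.

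*Cxcl15*, or lungkine, is a mouse chemokine that draws neutrophils into the airspace. The gene lies at chr5:90794534-90803067 on the plus strand. It had 7415, 7885 and 8675 CPM in AT2CTRL and 5467, 4301 and 2131 CPM in AT2CAB. Every AT2CAB library was below every AT2CTRL library, and the lowest was AT2CAB replicate 3. The means were 7992 ± 637 and 3967 ± 1693 CPM (SD, n = 3), a log2 fold change of -1.01 (SE 0.31, adjusted p = 0.367, edgeR). Without AT2CAB replicate 3 the value was -0.67. It was -0.73 in the 4 libraries without Y-linked reads (SE 0.14, adjusted p = 0.0742, edgeR) and -1.80 in the pair.

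Among 7 other genes of neutrophil chemotaxis, 6 were tested, none passed the adjusted test of edgeR, limma-voom or DESeq2, and none had an unadjusted p under 0.05. The median log2 fold change was -0.04. *Cxcr2*, the receptor, had the highest value (1.08, adjusted p = 0.578, edgeR) and *Cxcl3* the lowest (-1.28, adjusted p = 0.577, edgeR), both at means between 0.589 and 2.36 CPM. *Cxcl17*, a mucosal chemokine named here after its values were seen, had 29.8 ± 5.25 CPM in AT2CTRL and 22.4 ± 8.52 CPM in AT2CAB (SD, n = 3).

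*Il33* (chr19:29925114-29960715, plus strand) encodes an alarmin that is held in the nucleus and freed when the cell is damaged, to act on ST2-bearing lymphocytes. It had 448.8, 720.4 and 757.4 CPM in AT2CTRL and 479.2, 417.1 and 244.1 CPM in AT2CAB. The groups overlapped, since AT2CTRL replicate 1 lay below AT2CAB replicate 1. In each group the library with Y-linked reads had the lowest value. The means were 642 ± 168 and 380 ± 122 CPM (SD, n = 3), a log2 fold change of -0.76 (SE 0.28, adjusted p = 0.446, edgeR). The differences within the subsets were close to this, -0.69 in the 4 libraries without Y-linked reads (SE 0.09, adjusted p = 0.0312, edgeR) and -0.88 in the pair, and *Il33* was the only member called in the 4 libraries, where 0.245% of 16316 genes were called lower and 0.447% higher. Without AT2CAB replicate 3 the value was -0.49, with all 3 AT2CTRL libraries kept.

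Of 10 other genes of the alarmin group, 9 were tested and none passed with edgeR, limma-voom or DESeq2. *Il1b* had the highest value, 1.69 (adjusted p = 0.554, edgeR), which came from 23.7 CPM in AT2CAB replicate 1 beside 1.79 to 4.85 CPM in the other 5 libraries. *Myd88*, the adaptor of interleukin 1 family receptors, had the lowest, 79.2 ± 5.33 CPM in AT2CTRL and 63.7 ± 5.77 CPM in AT2CAB (SD, n = 3; log2 fold change -0.31, adjusted p = 0.443, edgeR), and it was the only one of the group at an unadjusted p under 0.05. *Il1rl1*, the receptor of interleukin 33, was at 0.647 to 2.93 CPM over the 6 libraries.

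*Egfl6* (chrX:166523007-166585716, minus strand) had 620.4, 726.4 and 818.9 CPM in AT2CTRL and 1057, 1276 and 1217 CPM in AT2CAB. All AT2CAB libraries were above all AT2CTRL libraries, and the coefficient of variation was 13.8% in AT2CTRL and 9.54% in AT2CAB. The means were 722 ± 99.4 and 1183 ± 113 CPM (SD, n = 3), which gives a ratio of 1.64 and a log2 fold change of 0.71 (SE 0.16, adjusted p = 0.184, edgeR). It was 0.63 in the 4 libraries without Y-linked reads (SE 0.12, adjusted p = 0.0813, edgeR) and 0.97 in the pair. Leaving out each library in turn gave 0.61 to 0.81. Stromal markers were read beside it, with the sums given beside complement. All 8 had a positive log2 fold change (median 0.54). Of these, 3 (*Col1a1*, *Col1a2* and *Col3a1*) lay wholly above AT2CTRL, and the others overlapped it. The 3 collagens were called higher by DESeq2 and with the covariate for Y-linked reads, though not by edgeR without it. All 8 endothelial markers were also positive (median 0.62), and each overlapped between the groups. *Col1a1* had 25.7, 31.8 and 30.9 CPM in AT2CTRL and 44.2, 51.8 and 47.3 CPM in AT2CAB. The part of stromal or endothelial cells in the *Egfl6* result was not tested.

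**Figure D2:**
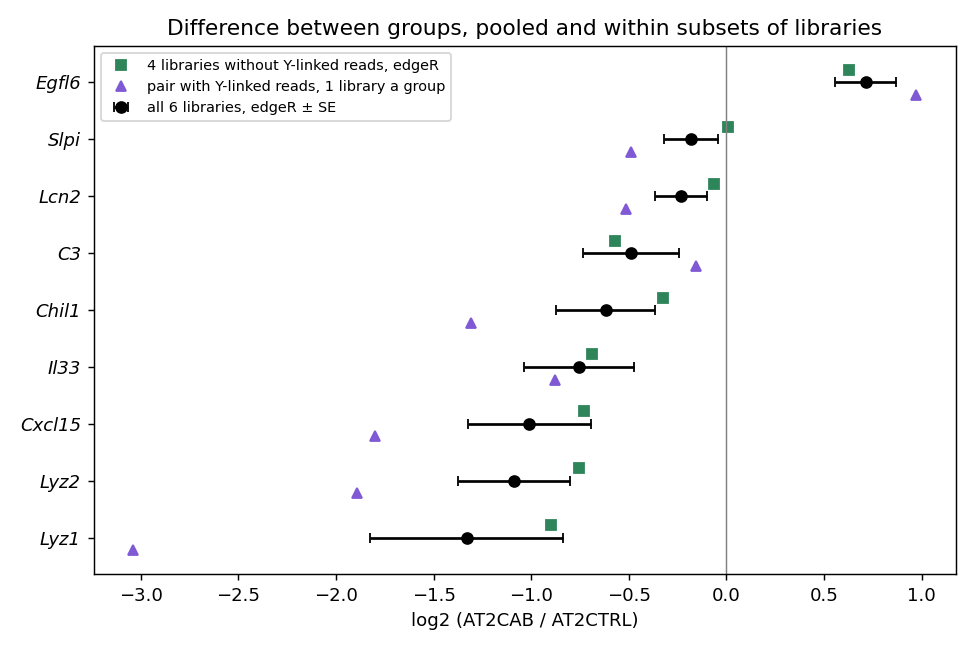
Difference between the groups on the log2 scale for each gene. Circles with bars are edgeR's log2 fold change ± SE over all 6 libraries, squares the same fit in the 4 libraries without Y-linked reads, and triangles the pair with such reads, 1 library a group. *Lyz1* runs from -0.90 (square) to -3.04 (triangle), whereas *Il33* runs from -0.69 to -0.88.

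The size of the difference followed the library in most members. AT2CAB replicate 3 was the lowest of the 6 libraries for all members but *Egfl6*, 8 of 9, where 26.8% of all tested genes were lowest in that library. That share covers genes of both directions (51.2% had a log2 fold change under 0), so it is not matched to members that were lower in AT2CAB. The 9 genes together summed to 47882, 44822 and 47682 CPM in AT2CTRL and to 31860, 25760 and 15161 CPM in AT2CAB, most of it *Lyz2*. When Y-linked reads entered edgeR's fit as a covariate, 3 members passed as lower (*Lyz2*, *Cxcl15* and *Il33*) beside 1.26% of all genes and *Egfl6* passed as higher beside 1.27%. In the 4 libraries without such reads, 7 members separated as lower and *Egfl6* as higher, against 27% and 19.4% of all genes, and 6 members were lower at an unadjusted p under 0.05 (7.28% of all genes). AT2CAB replicate 3 also had the highest *Id1* of the 6 libraries (411.4 CPM). Y-linked reads, that library and its *Id1* level cannot be told apart with 1 such library in AT2CAB.

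Per kilobase of exon, levels can be set between genes. In AT2CTRL the order was *Lyz2* (mean 27176 CPM per kilobase, rank 2 of all genes), *Cxcl15* (3757, rank 6), *Chil1* (3096, rank 10), *Lyz1* (1749, rank 14), *Lcn2* (757, rank 46), *Egfl6* (267), *Il33* (247), *C3* (118) and *Slpi* (23.7). *Egfl6* and *Il33* overlapped in AT2CTRL and did not differ beyond their spread. In AT2CAB the order began with *Lyz2* (12723, rank 3), *Chil1* (2016, rank 11) and *Cxcl15* (1865, rank 12). *Cxcl15* was above *Chil1* in each AT2CTRL library and below it in each AT2CAB library, by a small margin in AT2CAB replicate 1 (2570 against 2579). In AT2CAB *Lyz1* (mean 695, rank 41) overlapped *Lcn2* (644, rank 51), with AT2CAB replicate 3 at 202 for *Lyz1* and 576 for *Lcn2*. *Egfl6* (438, rank 89) was well above *Il33* (146) in AT2CAB. *C3* (83.9) and *Slpi* (20.9) closed the order.

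**Figure D3:**
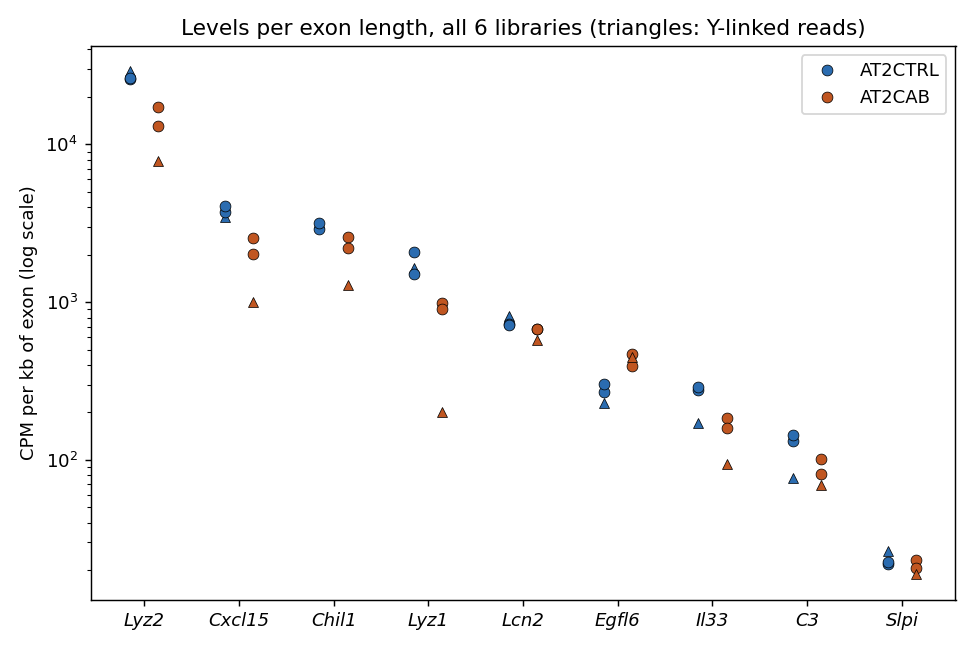
Level of each gene in CPM per kilobase of exon, on a log axis, for the 6 libraries, ordered by the AT2CTRL mean (triangles mark the libraries with Y-linked reads). *Lyz2* stands above the rest in both groups, and *Slpi* lies far below them.

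Across the 6 libraries, the pattern of *Lyz2* was most like those of *Cxcl15* (Pearson's r of log2 CPM 0.980), *Chil1* (0.972) and *Lyz1* (0.951) among the members, and least like that of *C3* (0.635), with *Egfl6* opposite (-0.885). Among 9231 genes with a mean of at least 10 CPM, those closest to *Lyz2* were *Tarsl2* (r = 0.9976), *Abhd5* (0.9966), a co-activator of lipid droplet lipolysis, and *Atp1b3* (0.9965), a subunit of the sodium pump. *Atp1b3* had 139, 138 and 140 CPM in AT2CTRL and 113, 105 and 81.9 CPM in AT2CAB. Closest to *Il33* were *Bmp3* (0.9986), a BMP family ligand, *Cyb5b* (0.9983) and *Pcyt1a* (0.9981), which makes the precursor of phosphatidylcholine. *Bmp3* had 34.6, 60.4 and 62.6 CPM in AT2CTRL and 37.9, 30.0 and 17.0 CPM in AT2CAB. Closest to *Egfl6* were *Adam10* (0.9977), a membrane protease, *Col3a1* (0.9976), a fibrillar collagen, and *N4bp3* (0.9967). *Adam10* had 61.8, 80.3 and 89.1 CPM in AT2CTRL and 140, 193 and 177 CPM in AT2CAB. With 6 libraries, r over 0.95 was common, in 296 genes for *Lyz2*, 380 for *Il33* and 69 for *Egfl6*, so these are descriptions of shared libraries and not of shared control.

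Of 16 other secreted antimicrobial proteins, 13 were tested and none passed with edgeR or limma-voom, with a median log2 fold change of -0.38. The 2 at an unadjusted p under 0.05 were the lung collectins, which bind microbial sugars, both lower. *Sftpa1* had 18968, 20271 and 19534 CPM in AT2CTRL and 15717, 12702 and 10148 CPM in AT2CAB (log2 fold change -0.61, adjusted p = 0.416, edgeR). *Sftpd* had 4287, 3936 and 3249 CPM in AT2CTRL and 2760, 2282 and 1930 CPM in AT2CAB (log2 fold change -0.72, adjusted p = 0.279, edgeR), and DESeq2 called it lower. Neither collectin overlapped between the groups, where 10.1% of all tested genes separated as lower. The highest value was that of *Lpo*, lactoperoxidase (1.10, adjusted p = 0.676, edgeR), at under 1.4 CPM in every library, and the lowest that of *Bpifa1* (-1.57, adjusted p = 0.712, edgeR), which was 15.5 CPM in AT2CTRL replicate 2 and at most 2.99 CPM elsewhere.

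Lysosomal enzymes share the acidic compartments of the AT2 cell with lysozyme. Of 13, 12 were tested, none passed with edgeR, limma-voom or DESeq2, and the median log2 fold change was -0.03. The highest value was that of *Ctss*, cathepsin S (0.64, adjusted p = 0.668, edgeR), which had 23.5 CPM in AT2CAB replicate 1 against 5.66 to 11.6 CPM in the other 5 libraries. The lowest was that of *Hexa* (-0.31, adjusted p = 0.473, edgeR), the only gene of the list at an unadjusted p under 0.05. *Napsa*, the aspartic protease that matures surfactant protein B, had 2448 ± 472 CPM in AT2CTRL and 2022 ± 128 CPM in AT2CAB (SD, n = 3).

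Regulators of defence genes in an acute response, around NF-kappaB, STAT3 and the C/EBP factors, were read as 14 genes, all tested. They include inhibitors (*Nfkbia*, *Tnfaip3* and *Socs3*) and receptor subunits (*Il6st* and *Il6ra*), so the list mixes genes that raise and lower the response. None passed with edgeR, limma-voom or DESeq2, and the median log2 fold change was -0.09. Before adjustment 1 gene was higher, *Il6ra*, a receptor subunit for interleukin 6 (0.38, adjusted p = 0.492, edgeR). Another 2 were lower, *Nfkbiz* and *Nfkb1*. *Nfkbiz*, a nuclear cofactor needed for *Lcn2* induction, had 204 ± 21.3 CPM in AT2CTRL and 148 ± 22.4 CPM in AT2CAB (SD, n = 3; log2 fold change -0.46, adjusted p = 0.387, edgeR). *Cebpa* had 1112 ± 59.3 and 926 ± 92.9 CPM, and *Stat3* had 357 ± 49.2 and 334 ± 7.04 CPM.

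**Figure D4:**
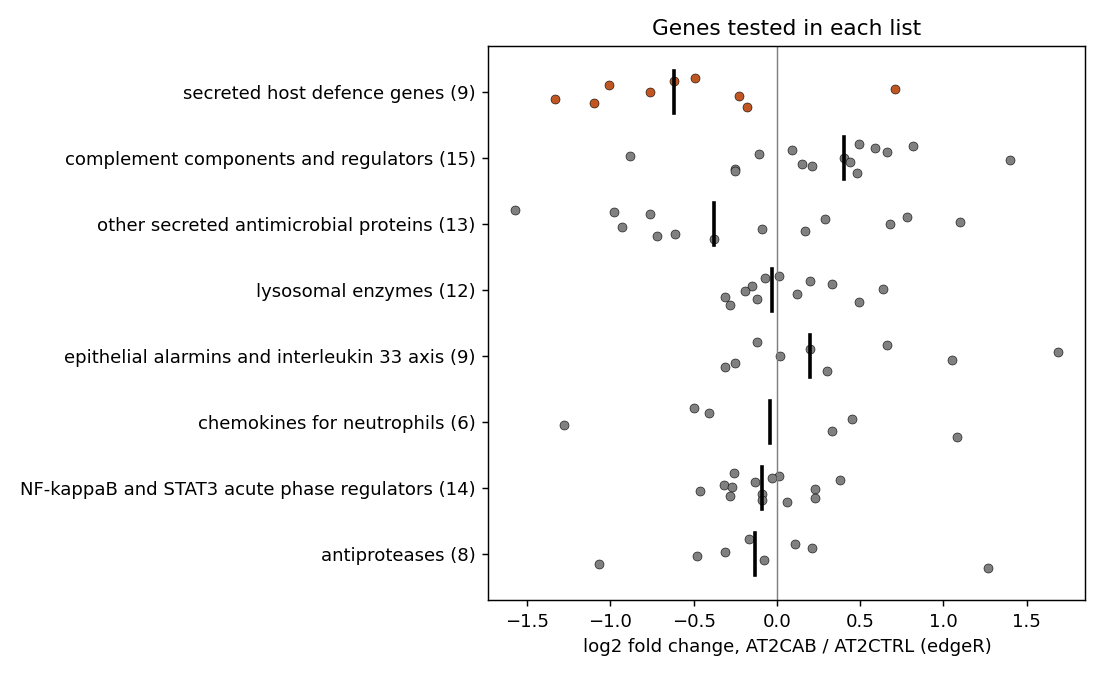
Log2 fold change of each tested gene in the 9 members and the 7 pathway lists (points, edgeR), with the median of each list as a bar and a line at 0. The medians run from -0.62 in the members to 0.40 in the complement list.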

How the data were processed

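Poly(A) RNA of sorted AT2 cells was sequenced as paired reads. The authors trimmed the reads, aligned them to mm10 with HISAT2, removed duplicate reads with SAMtools and deposited raw counts per gene from featureCounts 1.5.3, without normalization. The methods speak of fragments, but the header shows no strand or pair option, so the values are taken as counts of single reads, with reads over more than 1 gene left out. Duplicate removal can lower the counts of short, highly expressed genes such as *Lyz2* (up to 697 reads per base of exon). Its effect was not tested.

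The counts of 3 AT2CTRL and 3 AT2CAB libraries, grouped by their labels, entered a quasi-likelihood fit in edgeR 4.0.16 (R 4.3.3) after TMM scaling and edgeR's expression filter (minimum count 10), with Benjamini-Hochberg adjusted p-values over all 16723 genes and a threshold of 0.05. DESeq2 1.42.0, limma-voom (limma 3.58.1), other scalings and filters, the replicate number as a block, age, Y-linked reads and each library left out in turn were alternatives. The interaction of group and Y-linked reads was chosen after seeing the data. The fits were tested on simulated data. The labels do not say that replicates are separate mice, so p-values measure the spread between these libraries. All pairs of libraries of a group differed by more than counting noise.

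The members and lists were chosen with earlier results of these data known. All 9 members were named with every library's value, and from each pathway list every gene that passed edgeR's test without covariates and those with the highest and lowest log2 fold change. For *Lyz2*, *Il33* and *Egfl6* the 3 most correlated genes were named. Other genes were chosen after their values were seen. Marker symbols Siglec5 and Ly6g, and *C5*, were not analysed here. A count of 3, the floor, is 0.0976 to 0.138 CPM. Sequences came from GENCODE M21 and from RefSeq (GRCm38.p6).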

Additional observations from a re-analysis of the deposited data

How the results depend on the processing

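Of 99 values of the 9 genes under alternatives to edgeR's main fit, 90 kept their direction and their side of the threshold, 8 kept their direction and passed it, and 1 reversed (*Slpi*, 0.0062 in the 4 libraries without Y-linked reads). All 54 values with a library left out kept both. The 8 were *Lyz2* (-1.08, adjusted p = 0.00293), *Cxcl15* (-0.995, adjusted p = 0.037) and *Egfl6* (0.724, adjusted p = 0.00285) with DESeq2, *Il33* in the 4 libraries, and with the covariate for Y-linked reads *Lyz2* (-1.15, adjusted p = 0.0462), *Cxcl15* (-1.10, adjusted p = 0.0395), *Il33* (-0.774, adjusted p = 0.00867) and *Egfl6* (0.72, adjusted p = 0.0298). The cause of these differences was not tested. The members called higher and lower were thus 1 and 2 with DESeq2, 1 and 3 with the covariate, and 0 and 1 in the 4 libraries, against 0 and 0 in the other alternatives, limma-voom and every library left out included.

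Over all genes, edgeR called 40 higher and 2 lower. The counts were 62 and 5 without a filter, 198 and 88 with DESeq2, 213 and 210 with the covariate and 73 and 40 in the 4 libraries. Upper-quartile scaling, library size only, limma-voom and age as a covariate each called 1 gene lower. With the replicate number as a block (replicate block), 36 genes were called higher and 5 lower, and no member. Deviations from the group means of libraries with the same number correlated at -0.32, 0.25 and -0.54. With 3 libraries a group, such deviations depend on one another, so these values cannot show whether the numbers pair the libraries. Leaving out each library in turn gave 6 to 59 genes higher and 0 to 4 lower. In each of these fits 1 member was higher at an unadjusted p under 0.05, and 2 to 5 were lower. The number lower was 3 without AT2CTRL replicate 2, 2 without AT2CTRL replicate 3, and 3 without AT2CAB replicate 2 or replicate 3. The share of all genes at that threshold was not computed for these fits, so the counts have no background beside them. With library size only, the median of all genes moved from -0.0096 to 0.12, so values are shifted upward by about that much.

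With 3 libraries a group, the spread between libraries and not the depth limits the comparisons of the 9 members: the member with the fewest reads had 446 to 522 per library. For list genes at low levels, such as *Lpo* at 0.114 to 1.37 CPM, depth can limit the comparison as well.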
